A study of Mus musculus with 24 samples.

Results

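The comparison described here is that of neuregulin 1 (NRG1) with its vehicle in Lgr5high stem cells of the mouse small intestine. Its members are the 6 libraries whose labels give the Lgr5high-CD24low gate, out of 24 libraries in the series, and all genes expressed in them were read, with weight on those outside the cell cycle. All mice, treated and control, are given as male Lgr5-EGFP C57BL/6 littermates. Their ages differed between replicates, so they were not all of the same litter. The 3 treated mice received 7.5 µg of NRG1 by intraperitoneal injection every 12 h for 5 days, the 3 controls received PBS on the same schedule, and crypts were isolated on day 6. Replicates 1 and 2 of both groups were 15 weeks old and replicate 3 of both was 11 weeks old. The sort removed cells with CD31, CD45 or propidium iodide signal and split the rest on EGFP and CD24, each mouse gave 1 library to each of 4 populations (Lgr5high, Lgr5med, Lgr5low and Lgr5neg), and 15 ng of RNA per library was read as single reads of 76 nt. The gate rests on EGFP driven from the Lgr5 locus, so a cell enters it by reporter level and not by its own Lgr5 transcript count.

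NRG1 is a secreted growth factor of the EGF family that binds ErbB3 and ErbB4. ErbB3 has little kinase activity of its own and signals with a partner such as ErbB2 or EGFR, chiefly into the PI3 kinase and AKT pathway and also into RAS, RAF and ERK. Crypt base columnar cells marked by Lgr5 are the dividing stem cells of the intestine, kept by Wnt and Notch signals and flanked by Paneth cells, and their daughters become absorptive or secretory cells as they leave the crypt base.

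The markers that define the gate's label were abundant in all 6 libraries. Olfm4, a secreted glycoprotein of crypt base stem cells, was at 2683, 2599 and 2301 CPM (counts scaled to library size with edgeR's TMM factors) in NRG1 replicates 1 to 3 and at 3100, 2106 and 2824 CPM in PBS replicates 1 to 3. Lgr5 was at 277, 175 and 194 CPM against 272, 124 and 221 CPM, and Ascl2, a transcription factor of these cells, at 59.0, 70.0 and 85.8 CPM against 77.7, 59.2 and 74.0 CPM. For each of the 3 genes the groups overlapped, with log2 differences (NRG1 minus PBS) of -0.08, 0.07 and 0.03. None of the 28 stem cell markers tested passed in either direction (median -0.05), but 2 were lower without PBS replicate 2 and 1 without PBS replicate 3 or with age as a covariate. Total counts were 18018368 to 21251302 per library, of which the mitochondrial ribosomal RNAs took 42.1% to 46.6%, and 13074 to 13828 genes had 10 or more counts. Sorted-out cell types were near absent: 22 immune markers together made up 0.00292% to 0.00421% of counts outside mitochondrial ribosomal RNA in NRG1 libraries and 0.00305% to 0.00434% in PBS libraries, and Cd4, Ighm and Emr1 were at 0 in all 6. Itgam had the most counts of these markers, 241, 395 and 405 with NRG1 and 220, 434 and 241 with PBS. In such bulk samples a smaller number of cells of a type and less RNA per cell cannot be told apart.

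Of 13322 genes tested with edgeR's quasi-likelihood test, 976 passed a Benjamini-Hochberg adjusted p of 0.05 (7.33%), here termed called: 423 were higher with NRG1 (3.18%) and 553 lower (4.15%). Of the called genes 114 were in the cell cycle lists: G2/M, S phase, and CDK inhibitors, pocket proteins and G1 cyclins. In these, 74 of 99 G2/M genes rose and none fell, and 34 of 88 S phase genes fell (22 without NRG1 replicate 2) and 2 rose. Of 18 genes tested in the last list 4 fell and 2 rose. That list shares Ccnd1, Ccnd2, Rbl2 and Cdkn1b with other lists described below. Mki67, the proliferation marker, was at 2014, 1531 and 1864 CPM against 1015, 1122 and 1163 CPM (0.71, adjusted p = 0.00452), and Ung, the uracil DNA glycosylase, at 13.5, 13.9 and 11.5 CPM against 82.3, 104 and 63.96 CPM (-2.69, SE 0.17). The other 862 comprised 345 that rose and 517 that fell. By size the falls also prevailed: 104 genes fell and 37 rose by more than 2-fold outside the cell cycle lists. These lists are not complete, and a gene outside them can still belong to the cell cycle. The median log2 difference over all genes tested was 0.01. For 3656 genes (27.4%) the 3 NRG1 values and the 3 PBS values did not overlap. The first principal component (34.9% of the variance) placed the 3 NRG1 libraries on one side and the 3 PBS libraries on the other, and the second (22.3%) set replicate 2 of both groups apart from the rest. The count of calls changed with the libraries fitted. Leaving out NRG1 replicates 1, 2 and 3 in turn gave 579, 547 and 563. Leaving out PBS replicates 1, 2 and 3 gave 731, 491 and 1186. Each of these fits has 1 library fewer and less power, so a lost call need not have rested on the library left out. In a fit of all 24 libraries with 1 shared spread the count was 480. There 63 of the 119 called genes that the naming rule picked lost their call, Mki67 among them (adjusted p = 0.103). None of the 119 changed sign in any of 16 alternative fits.

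**Figure D1:**
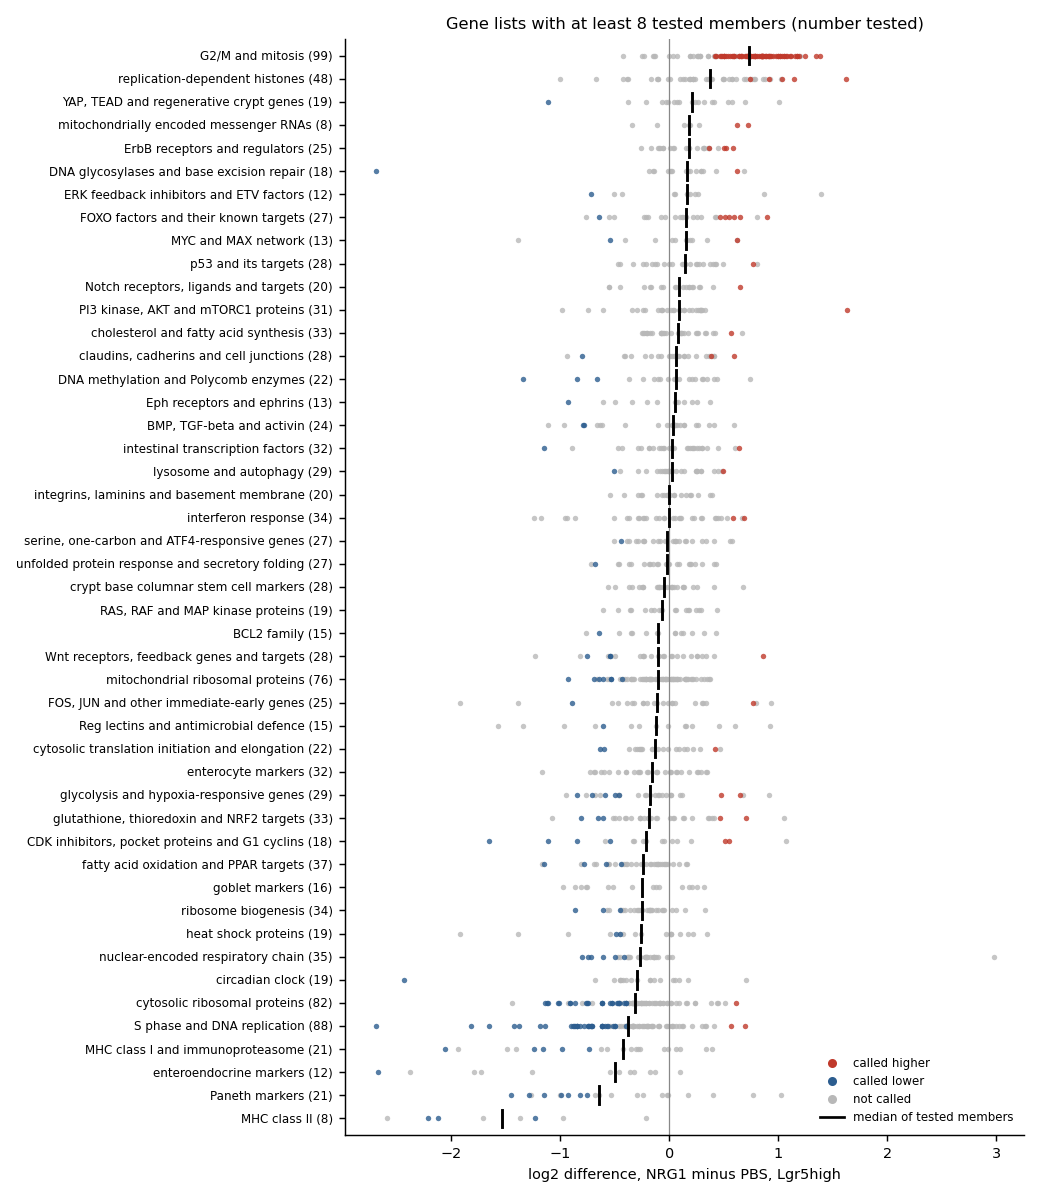
Log2 difference (NRG1 minus PBS) of each tested member of the gene lists with at least 8 tested members, in Lgr5high cells. Each point is a gene, red where it was called higher, blue where lower and grey where not called, and the black bar is the median of the list. G2/M genes sit highest (median 0.73), and MHC class II genes lowest (median -1.54).

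Outside the cell cycle lists the largest rises joined a metallothionein, a PI3 kinase subunit, histones and a centrosome gene. Mt2, a metallothionein that binds zinc and copper, was at 49.99, 75.8 and 97.4 CPM in NRG1 libraries and at 22.9, 15.8 and 26.2 CPM in PBS libraries. Its groups did not overlap, as the rule for naming the largest changes required (log2 difference 1.79, SE 0.29, adjusted p = 0.0149). Its neighbour Mt1, looked at after its values were seen, was at 43.6, 53.1 and 61.7 CPM against 46.0, 44.2 and 50.4 CPM (0.17, adjusted p = 0.487). The rise of Pik3r3, for a PI3 kinase regulatory subunit, was 1.63 (adjusted p = 0.000401). Prr11, a gene known for a role in mitosis that is not in the lists, was at 102, 80.9 and 116 CPM against 45.5, 40.4 and 40.5 CPM (1.24, SE 0.13, adjusted p = 0.000124). Cntrl, which encodes the centrosomal protein centriolin, was at 124, 121 and 114 CPM against 55.7, 62.6 and 55.001 CPM. Its log2 difference of 1.05 had the smallest error of the rises named here (SE 0.11, adjusted p = 9.11e-05). The call of Mt2 ended without PBS replicate 1 (adjusted p = 0.0724) and in the fit of all 24 libraries (0.0764).

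H3f3a is 1 of 2 genes for the replacement histone H3.3. It was at 35.6, 48.9 and 49.8 CPM against 20.2, 17.2 and 21.9 CPM (1.18, SE 0.15, adjusted p = 0.000332). H3f3b, the other H3.3 gene and named after its values were seen, was at 143, 113 and 120 CPM against 153, 174 and 155 CPM (-0.36, adjusted p = 0.0776). Both genes have processed copies elsewhere in the genome, so their counts are uncertain. Zfp518b, a zinc finger gene, rose by 1.16 (adjusted p = 0.00119) and Camk4, a calcium and calmodulin dependent kinase, by 1.14 (0.00658). Acss3, a mitochondrial acyl-CoA synthetase (1.13), Adcy1, an adenylate cyclase (1.09), Hoxb6, a homeobox factor (1.08), Zfp473 (1.03) and Serhl (1.00) also rose. Each of these 5 lost the call without at least 1 library: Acss3 without NRG1 replicate 1 (adjusted p = 0.0969) or PBS replicate 2 (0.071), Adcy1 without NRG1 replicate 1 (0.173), NRG1 replicate 2 (0.0851), PBS replicate 2 (0.153) or PBS replicate 3 (0.0758), and Zfp473 without NRG1 replicate 1 (0.054). Hoxb6 lost it without NRG1 replicates 1 (0.0666) or 3 (0.0518) or PBS replicates 1 (0.0656) or 2 (0.0695), and Serhl without NRG1 replicates 2 (0.0957) or 3 (0.105) or PBS replicates 1 (0.0662) or 3 (0.0629).

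**Figure D2:**
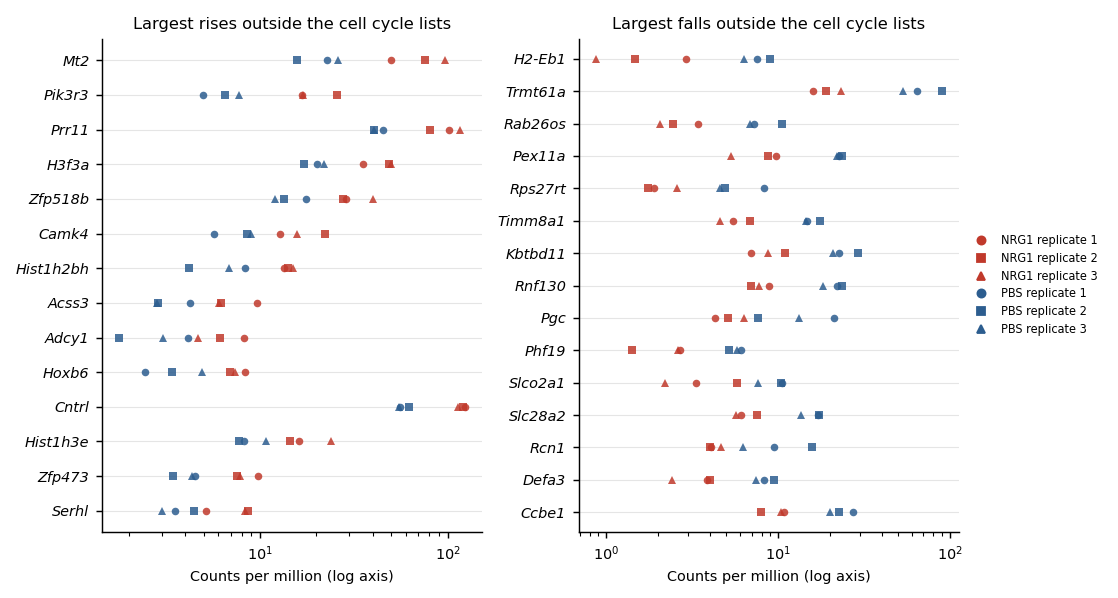
CPM (log axis) of 14 of the 15 largest rises (left) and 15 largest falls (right) outside the cell cycle lists, in each of the 6 Lgr5high libraries, red for NRG1 and blue for PBS, with the marker shape giving the replicate. In every row the 3 red points lie apart from the 3 blue ones, as the rule for naming genes requires.

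The largest falls held enzymes and transporters of low to moderate level. Trmt61a, the catalytic subunit of the transfer RNA m1A58 methyltransferase, was at 15.9, 19.0 and 23.3 CPM in NRG1 libraries and at 63.8, 89.3 and 53.1 CPM in PBS libraries. Its groups did not overlap, as the rule for naming the largest changes required (log2 difference -1.83, SE 0.20, adjusted p = 0.000401). It lies on chromosome 12, 111678105 to 111683902 of GRCm38. Pex11a, a protein of peroxisome division and a target of PPAR-alpha, was at 9.70, 8.72 and 5.29 CPM against 22.6, 23.7 and 21.9 CPM (-1.52, SE 0.19, adjusted p = 0.000332). Timm8a1, which helps carry proteins into the inner mitochondrial membrane, was at 5.49, 6.88 and 4.57 CPM against 14.7, 17.5 and 14.6 CPM (-1.46, adjusted p = 0.000338). Kbtbd11, a BTB and kelch domain protein, fell by 1.45 (adjusted p = 0.000355), and Rnf130, a RING finger protein, by 1.44 (0.000219). Slc28a2, a purine nucleoside transporter, was at 6.06, 7.50 and 5.70 CPM against 17.1, 17.4 and 13.5 CPM (-1.32, adjusted p = 0.000493). It lost the call in the fit of all 24 libraries (0.139). Ccbe1, a secreted protein known from lymphatic growth, fell by 1.26 (adjusted p = 0.000407).

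Slco2a1, a prostaglandin transporter (-1.33), Rcn1, a calcium-binding protein of the endoplasmic reticulum (-1.31), and Pgc, the gastric protease progastricsin (-1.41), also fell. Their calls did not hold without certain single libraries. Slco2a1 lost the call without NRG1 replicate 1 (adjusted p = 0.0651) or PBS replicate 2 (0.0558), and Rcn1 without NRG1 replicate 1 (0.0671), NRG1 replicate 2 (0.066) or PBS replicate 2 (0.0736). Pgc was at 4.31, 5.14 and 6.32 CPM against 21.2, 7.61 and 13.3 CPM and lost the call without NRG1 replicate 1 (0.154), 2 (0.158) or 3 (0.0925) or PBS replicate 3 (0.0908). Rab26os (-1.63) is annotated on the strand opposite Rab26, and without knowledge of strand in the counting its reads cannot be told from those of Rab26. Rps27rt (-1.51) is a near-identical copy of Rps27 and is uncertain for that reason. Rps27 itself was at 181, 240 and 261 CPM against 590, 411 and 300 CPM (-0.93, adjusted p = 0.0694).

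MHC class II genes stood lowest of the lists. They present peptides to CD4 T cells and are also made by intestinal epithelium, where the transactivator Ciita acts with factors bound to an X box and a CCAAT-type Y box before each gene. H2-Eb1, a class II beta chain, was at 2.93, 1.46 and 0.873 CPM with NRG1 and at 7.53, 8.98 and 6.35 CPM with PBS. No NRG1 library came near the lowest PBS library (log2 difference -2.12, SE 0.35, adjusted p = 0.00256; chromosome 17, 34305867 to 34316674). H2-DMb1, the beta chain of the peptide loading factor H2-DM, was low throughout, at 0.411, 0.519 and 0.103 CPM against 2.53, 1.504 and 0.869 CPM (-2.22, SE 0.60, adjusted p = 0.032). H2-DMa, its partner, was at 5.95, 3.39 and 2.21 CPM against 10.5, 9.80 and 6.79 CPM (-1.23, SE 0.31, adjusted p = 0.0288). These were the 3 called of 8 tested, and all 8 had a log2 difference below 0. Only 1 was called without NRG1 replicate 3, PBS replicate 1 or PBS replicate 2, none in the fit of all 24 libraries, and 6 with age as a covariate.

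The remaining class II genes, named after their values were seen, varied more. Cd74, the invariant chain, was at 47.5, 24.7 and 16.5 CPM against 77.6, 98.9 and 51.9 CPM (-1.37, SE 0.50, adjusted p = 0.206). H2-Ab1 was at 12.7, 7.40 and 3.39 CPM against 23.5, 37.8 and 15.3 CPM (-1.71, adjusted p = 0.196), and H2-Aa at 2.87, 1.56 and 1.03 CPM against 10.1, 19.3 and 3.37 CPM (-2.59, adjusted p = 0.141). In all 3 the groups did not overlap, yet replicate 3, from the 11-week-old mice, was the lowest library of its own group. With age as a covariate all 3 passed (adjusted p = 0.0181 for Cd74, 0.00262 for H2-Ab1 and 0.00176 for H2-Aa). With the replicate number as a block they passed too (adjusted p = 0.00227, 0.00103 and 0.000492). The 11-week-old mice were all replicate 3, so age cannot be told from replicate. Ciita was at 1.80, 0.849 and 0.462 CPM against 2.69, 2.01 and 1.41 CPM and overlapped (-0.97, adjusted p = 0.243). The 11 listed class II genes together took 0.00659% to 0.0165% of counts outside mitochondrial ribosomal RNA in NRG1 libraries and 0.0193% to 0.0361% in PBS libraries. Itgax, a marker of dendritic cells that also carry class II, had 0 to 2 counts per library, and Ptprc, which encodes the sorted-out CD45, had 0, 13 and 0 counts with NRG1 and 0, 9 and 2 with PBS. H2-Eb1 lost its call in the fit of all 24 libraries (adjusted p = 0.106). H2-DMa lost it there too (0.157) and without NRG1 replicates 2 (0.113) or 3 (0.0704) or PBS replicates 1 (0.0894) or 2 (0.106), and H2-DMb1 in that fit (0.123), with the 15-week-old mice alone (0.0588) and without NRG1 replicates 1 (0.0774) or 3 (0.109) or PBS replicates 1 (0.151) or 2 (0.0899).

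The promoters of the 2 class II genes with the largest called falls show the X box that groups them. Letters were read from RefSeq promoters on GRCm38.p6, which covered 9406 of the 13322 genes tested and 5 of the 8 class II genes. An X box was taken as CTAG, 2 free bases, AC, 1 free base and GATG, searched on both strands of the 250 bases before each start site. It was in 6 of the 9406 genes (0.0638%), among them H2-Eb1 and H2-DMb1 but none of the other 3 class II genes covered. Capitals mark the X box and, in H2-Eb1, the ATTGG of the Y box 22 bases further on; for H2-DMb1 the X box with its flanks is shown, followed by an ATTGG 23 bases on. Both stretches are on the plus strand, at chr17:34305763-34305822 for H2-Eb1 and chr17:34153086-34153114 for H2-DMb1.
H2-Eb1: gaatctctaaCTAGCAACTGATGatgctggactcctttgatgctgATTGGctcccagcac
H2-DMb1: aggtttacCTAGTAACTGATGatgctagg

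Class I genes and the immunoproteasome moved less. Of 21 tested, 5 fell and none rose (median -0.43), and the falls were mainly in parts of the immunoproteasome, which cuts peptides for class I. Psmb9 was at 17.1, 17.8 and 15.9 CPM against 33.4, 40.1 and 27.3 CPM (-0.99, SE 0.15, adjusted p = 0.00111), and Psmb8 at 5.54, 6.13 and 4.16 CPM against 10.9, 16.4 and 10.2 CPM (-1.24, adjusted p = 0.00323). For each of these genes the NRG1 libraries all lay below the PBS libraries. Psme2, a subunit of the proteasome activator PA28, fell by 0.73 (adjusted p = 0.00438), and H2-T3, the nonclassical thymus leukemia antigen of intestinal epithelium, by 1.16 (0.000401). The classical chains, named after their values were seen, H2-K1 (-0.35, adjusted p = 0.0888) and H2-D1 (-0.43, 0.0592) did not pass, and B2m, the shared light chain, was level at 446, 516 and 543 CPM against 519, 482 and 514 CPM (-0.01). Psmb8 and Psme2 lost the call in the fit of all 24 libraries (adjusted p = 0.0801 and 0.0514). Interferon-responsive genes did not move with them: of 34 tested, Stat2 (0.68, adjusted p = 0.0296) and Samhd1 (0.58, 0.00957) rose, none fell, and the median was -0.01. Without NRG1 replicate 2 the adjusted p of Samhd1 was 0.0557 and that of Stat2 was 0.123, and Stat2 also lost the call without NRG1 replicates 1 (0.052) or 3 (0.0791) or PBS replicates 1 (0.103) or 2 (0.123).

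**Figure D3:**
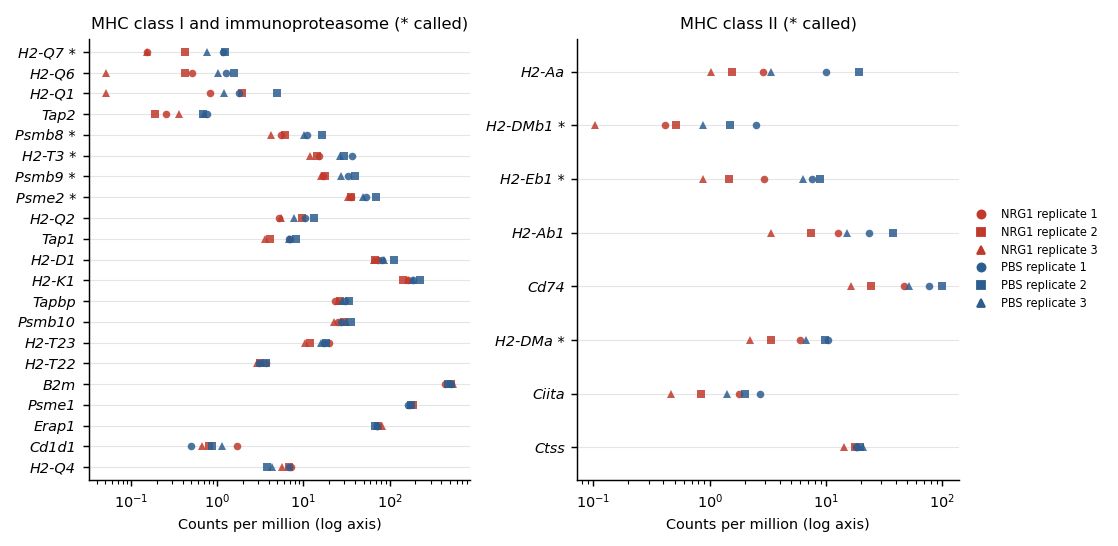
CPM (log axis) of MHC class I and immunoproteasome genes (left) and MHC class II genes (right) in the 6 Lgr5high libraries, ordered from the lowest log2 difference. Red is NRG1, blue is PBS, the marker shape gives the replicate and a star marks called genes. The class II genes other than Ctss and Ciita keep their 3 NRG1 points left of their 3 PBS points, and B2m shows no separation.

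Transcripts of the NRG1 pathway itself changed in few places. Erbb3, the receptor for NRG1, was at 284, 282 and 243 CPM with NRG1 and at 216, 163 and 187 CPM with PBS. Every NRG1 library was above every PBS library (0.52, SE 0.13, adjusted p = 0.0205), although the call ended without NRG1 replicates 1 (0.0809) or 2 (0.0845) or PBS replicate 2 (0.0951). Egfr was at 89.3, 83.2 and 83.8 CPM against 76.1, 77.7 and 73.8 CPM (0.17, adjusted p = 0.368), and Erbb2 at 94.6, 89.9 and 84.9 CPM against 105, 92.2 and 84.0 CPM (-0.06, 0.798). Erbb4 had 1 count in the 6 libraries and Nrg1 had 0. Of the 25 tested receptors and regulators, 4 rose and none fell (median 0.18). Besides Erbb3 these were the ubiquitin ligase Nedd4l (0.58, adjusted p = 0.00798), the inhibitor Lrig3 (0.50, 0.0334) and the deubiquitinase Usp8 (0.36, 0.0491). Lrig3 lost the call without any 1 NRG1 library (adjusted p = 0.0748, 0.0986 and 0.125) or PBS replicate 1 (0.126), and Usp8 without any 1 of NRG1 replicates 1 to 3 (0.155, 0.0942 and 0.168) or PBS replicates 1 (0.148) and 2 (0.112). None of the 7 ErbB ligands tested passed.

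Downstream of the receptors, none of the 19 RAS, RAF and MAP kinase genes passed (median -0.07). Among 12 ERK feedback inhibitors and ETV factors, which usually rise with ERK activity, the median was 0.16 with 9 above 0, and only Spry2 was called. It fell from 15.5, 12.4 and 10.4 CPM with PBS to 5.75, 7.83 and 9.66 CPM with NRG1 (-0.72, adjusted p = 0.0487). The highest NRG1 library lay just under the lowest PBS library, and the call ended without NRG1 replicates 1 (0.172) or 2 (0.115) or PBS replicates 1 (0.174) or 2 (0.115) and with age as a covariate (0.0573), where 1 other gene of the list was higher. Of 31 genes for PI3 kinase, AKT and mTORC1 proteins, Pik3r3 alone passed. FOXO factors and their known targets, which AKT restrains, had more calls: 6 of 27 rose and 1 fell (median 0.16). Ccng2, a cyclin that opposes division, was at 31.6, 28.7 and 30.5 CPM against 17.8, 14.0 and 17.2 CPM (0.89, SE 0.14, adjusted p = 0.0012). Tob1, an antiproliferative protein (0.64, adjusted p = 0.0153), the pocket protein gene Rbl2 (0.51, 0.0142), Sesn3 (0.60, 0.0432), the p27 gene Cdkn1b (0.54, 0.0211) and catalase, Cat (0.47, 0.0257), also rose, of which Sesn3, Cdkn1b and Cat were named after their values were seen. The 6 rises became 2 without NRG1 replicate 1 or 2 and 3 without NRG1 replicate 3 or PBS replicate 2. Sesn3 lost its call without any NRG1 library (adjusted p = 0.119, 0.0974 and 0.121) or PBS replicates 2 (0.151) or 3 (0.0815), Cat without any NRG1 library (0.0902, 0.087 and 0.073) or PBS replicate 2 (0.112), and Cdkn1b without NRG1 replicate 3 (0.114) or PBS replicate 2 (0.0965). Bcl2l11, which encodes the proapoptotic protein BIM, fell from 45.0, 35.0 and 32.1 CPM to 23.04, 25.1 and 23.3 CPM (-0.65, adjusted p = 0.0108). Tob1 and Rbl2 lost the call without NRG1 replicate 1 (adjusted p = 0.0568 and 0.0604) or NRG1 replicate 2 (0.0762 and 0.0617), and Bcl2l11 in the fit of all 24 libraries (0.0801).

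Wnt, Notch and BMP genes changed singly. Of 28 Wnt receptors, feedback genes and targets, Prox1, a homeobox factor of progenitors and enteroendocrine cells, rose (0.86, adjusted p = 0.0487), and Myc (-0.55, 0.0085), Ccnd1 and the Wnt antagonist Sfrp5 (-0.75, 0.0175) fell. Axin2, the general readout of Wnt signalling, was at 314, 302 and 301 CPM against 328, 255 and 325 CPM, so the groups overlapped (0.01, adjusted p = 0.969). Of 20 Notch genes only the coactivator Maml1 rose (0.64, adjusted p = 0.0146). Of 24 BMP, TGF-beta and activin genes the BMP targets Id1 and Id2 fell. Id1 was at 9.96, 11.1 and 10.6 CPM against 19.6, 16.1 and 18.7 CPM (-0.78, SE 0.15, adjusted p = 0.00583), and Id2 at 5.95, 5.00 and 5.70 CPM against 8.03, 12.1 and 8.69 CPM (-0.80, 0.0291). Among 19 YAP and regenerative crypt genes only Ccnd2 was called, falling from 286, 336 and 326 CPM to 118, 164 and 155 CPM (-1.12, SE 0.13, adjusted p = 0.000229). Ccnd2 encodes cyclin D2, a G1 cyclin that is also in the list of CDK inhibitors and G1 cyclins. In the fit of all 24 libraries none of the Wnt list or the BMP list was called (adjusted p = 0.124 for Myc and 0.0965 for Id1). Prox1 lost the call without any 1 of 5 libraries (adjusted p = 0.0539 to 0.181; it kept it without NRG1 replicate 3), Sfrp5 without NRG1 replicates 1 (0.0548) or 2 (0.0775), Maml1 without NRG1 replicate 3 (0.0671) or PBS replicate 2 (0.0757), Ccnd1 without NRG1 replicate 1 (0.0639), and Id2 without any NRG1 library (0.0608, 0.0995 and 0.0665) or PBS replicate 2 (0.168).

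Of 22 DNA methylation and Polycomb genes 3 fell and none rose, while 13 of the 22 lay above 0 (median 0.06). Uhrf1, which brings the maintenance methyltransferase to replicated DNA and is also in the S phase list, was at 30.2, 27.4 and 37.0 CPM against 60.0, 51.0 and 59.2 CPM (-0.85, SE 0.13, adjusted p = 0.00133). Phf19, an accessory subunit of the Polycomb repressive complex PRC2, was at 2.67, 1.41 and 2.62 CPM against 6.05, 5.20 and 5.76 CPM (-1.34, SE 0.28, adjusted p = 0.00868). Eed, a core subunit of the same complex, was at 28.8, 30.1 and 27.5 CPM against 40.0, 51.9 and 44.8 CPM (-0.66, SE 0.13, adjusted p = 0.00556). In all 3 the highest NRG1 library lay below the lowest PBS library, and Phf19 lost its call in the fit of all 24 libraries (0.0853).

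Replication-dependent histone genes ran the other way, with 5 of 48 tested members higher and none lower (median 0.38), 9 without PBS replicate 3 and 8 with age as a covariate. Hist1h1b, a linker histone, was at 94.4, 85.9 and 117 CPM against 45.3, 43.9 and 68.5 CPM (0.92, adjusted p = 0.00817). Hist1h4f was at 4.36, 3.63 and 5.50 CPM against 1.15, 1.28 and 1.95 CPM (1.62, adjusted p = 0.00583), and Hist1h2bh (1.14, 0.0053) and Hist1h3e (1.04, 0.00607) also rose. Their messages end in a stem loop and mostly carry no poly(A) tail, and the genes are near copies of one another, so single members are uncertain. Hist1h4f lost its call in the fit of all 24 libraries (0.0555). This family and the ribosomal protein families were picked after the values had been seen.

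E2F sites are the usual control elements of S phase genes, and their letters were looked for before these start sites. TTTCGCGC, TTTGGCGC or TTTCCCGC, on either strand, was in 3.43% of the 9406 promoters, in 31% of 29 fallen S phase genes and in 7.46% of 389 genes that fell outside the cell cycle lists. Among 250 genes that rose outside those lists it was in 2.4%. The element TTTGAA, known from G2/M promoters as the CHR, was in 12.9% of all, 41% of 61 risen G2/M genes and 19.6% of the 250. CCAAT, known from the same promoters, was in 40.9%, 77% and 52.8%. The stretches shown are from fallen genes named here, with the E2F letters in capitals, and a match describes the letters only. They lie at chr17:56304108-56304155 (plus strand) for Uhrf1, chr2:34914157-34914204 (minus strand) for Phf19, chr1:128359788-128359835 (minus strand) for Mcm6, a subunit of the replicative helicase, and chr11:98907993-98908040 (plus strand) for Cdc6, which loads that helicase.
Uhrf1: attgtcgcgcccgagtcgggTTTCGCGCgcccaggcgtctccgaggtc
Phf19: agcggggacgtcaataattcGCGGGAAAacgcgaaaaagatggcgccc
Mcm6: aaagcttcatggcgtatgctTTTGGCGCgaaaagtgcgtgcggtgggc
Cdc6: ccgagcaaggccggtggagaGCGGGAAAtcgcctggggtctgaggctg

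Among genes of the protein synthesis machinery more were called lower than higher. Cytosolic ribosomal proteins fell in 24 of 82 tested members and rose in 1, Rpl10a (0.61, adjusted p = 0.0199; named after its value was seen), with a median of -0.32. Together they took 3.57% to 3.83% of counts outside mitochondrial ribosomal RNA in NRG1 libraries and 4.55% to 4.69% in PBS libraries, without overlap. Rpl37 was at 187, 197 and 221 CPM against 558, 463 and 312 CPM (-1.14, SE 0.18, adjusted p = 0.00256). Rps15a was at 190, 229 and 214 CPM against 473, 477 and 336 CPM (-1.02, SE 0.14, adjusted p = 0.000506). The 24 falls became 14, 13 and 15 without NRG1 replicates 1, 2 and 3 and 18, 15 and 25 without PBS replicates 1, 2 and 3, and Rpl10a lost its call without NRG1 replicates 2 (0.0648) or 3 (0.11) or PBS replicate 2 (0.0846). In Rpl37 and Rps15a PBS replicate 3 was the lowest PBS library and still above all NRG1 libraries. Rpl32 fell by 0.75 (adjusted p = 0.00237), and Rps27a, which encodes a ubiquitin and ribosomal protein fusion, by 0.62 (0.00239). Many of these genes have processed copies that can take or lend reads.

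None of the ribosome biogenesis genes rose, and they had a median of -0.25, with 30 of 34 below 0, of which 3 were called: the nucleolar factors Gnl3 (-0.61, adjusted p = 0.00583), Rrs1 (-0.86, 0.00928) and Fbl (-0.45, 0.0487). Gnl3, which encodes nucleostemin, was at 34.3, 32.9 and 37.0 CPM against 48.2, 53.2 and 58.0 CPM. Of 22 translation factors, Eif6, which keeps ribosomal subunits apart (-0.63, adjusted p = 0.0085), and Eef1b2 (-0.60, 0.0435) fell, and Eif4g2 rose (0.42, 0.0487). Mitochondrial ribosomal proteins fell in 7 of 76 and rose in none (median -0.10), but leaving out NRG1 replicates 1, 2 and 3 in turn gave 2, 1 and 4 falls, leaving out PBS replicates 1 and 2 gave 4 and 1, and the length and GC offset gave 3. The 7 included Mrps16 at 6.42, 4.29 and 5.80 CPM against 10.4, 11.6 and 9.34 CPM (-0.93, adjusted p = 0.0109). Rrs1 lost its call without PBS replicate 2 (0.0595), Eif6 without NRG1 replicate 2 (0.0509), and Mrps16 without NRG1 replicate 2 (0.0521) or PBS replicate 2 (0.0605). Fbl lost it without any of 5 single libraries (0.0536 to 0.221; it kept it without PBS replicate 3), Eif4g2 without any of 5 (0.11 to 0.17; likewise), and Eef1b2 without NRG1 replicates 2 (0.161) or 3 (0.149) or PBS replicates 2 (0.115) or 3 (0.116).

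Ribosomal protein genes are short, and transcript length moved with treatment over all genes. The median longest transcript was 1076.5 nt for cytosolic and 1866.5 nt for mitochondrial ribosomal proteins. It was 3582 nt for ribosome biogenesis genes and 3275 nt for translation factors. In the sixth of genes with the shortest transcripts (45 to 1605 nt) the median log2 difference was -0.10, with 34 called higher and 147 lower, and in the longest sixth (5532 to 123179 nt) it was 0.08, with 106 higher and 34 lower. Measured in each library as the median deviation of the longest minus the shortest sixth, the values were 0.12, 0.11 and 0.04 for NRG1 replicates 1 to 3 and -0.07, -0.13 and -0.10 for the PBS replicates, so all NRG1 libraries lay above all PBS libraries. A fit with a length and GC offset for each library, added after the data were seen, called 471 genes higher and 493 lower. In it the cytosolic ribosomal proteins kept a median of -0.19 with 16 lower and 3 higher, and the 24 falls thus became 16. The ribosome biogenesis genes had a median of -0.26 with 2 lower in it, and of -0.25 with 3 lower in the fit without the offset. Which of these 2 fits is closer to the cells was not tested.

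**Figure D4:**
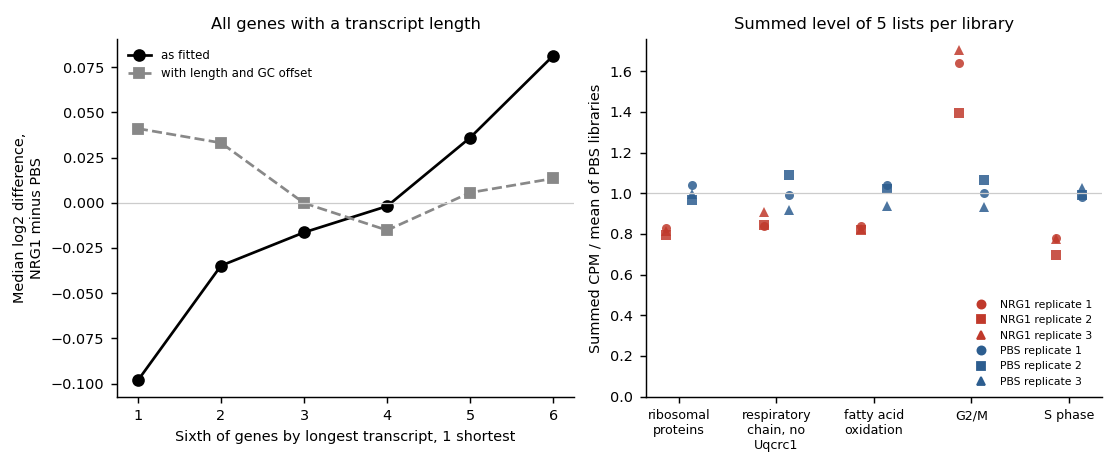
Left, median log2 difference (NRG1 minus PBS) in sixths of all genes ordered by their longest transcript, as fitted (black) and with a length and GC offset (grey). It climbs from -0.10 in the shortest to 0.08 in the longest sixth, and lies between -0.02 and 0.04 with the offset. Right, summed CPM of 5 gene lists in each library relative to the mean of the PBS libraries, red for NRG1 and blue for PBS, with ribosomal proteins at 0.793 to 0.830 in NRG1 and 0.964 to 1.04 in PBS libraries.

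Genes of energy metabolism also leaned downward. Of 35 nuclear genes for respiratory chain subunits, 33 were below 0 and 6 were called, all lower (median -0.27; 5 with the length offset, median -0.17). Ndufb5, a complex I subunit, was at 55.4, 52.6 and 54.3 CPM against 85.9, 117 and 79.9 CPM (-0.80, SE 0.14, adjusted p = 0.00225). Ndufa4 was at 86.0, 88.8 and 94.0 CPM against 131, 154 and 126 CPM (-0.61, adjusted p = 0.00412). The NRG1 libraries lay close together and below all PBS libraries in both. Uqcrc1, a complex III core subunit named after its values were seen, was the exception at 101, 1732 and 693 CPM with NRG1 against 84.7, 131 and 106 CPM (2.97, SE 1.12, adjusted p = 0.226). Because of it the summed level of the list was 0.842, 1.07 and 0.988 of the PBS mean in NRG1 replicates 1 to 3, and 0.841, 0.845 and 0.907 without Uqcrc1. Ndufb5 and Ndufa4 lost the call in the fit of all 24 libraries (0.0621 and 0.0819).

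Transcripts made by the mitochondrial genome went up where they were called. mt-Co1, for a complex IV subunit, was at 12613, 13214 and 12613 CPM with NRG1 and at 7121, 6806 and 9420 CPM with PBS (0.72, SE 0.15, adjusted p = 0.00969). mt-Cytb was at 4955, 5128 and 5544 CPM against 2999, 2780 and 4410 CPM (0.62, adjusted p = 0.0324), and the other 6 of 8 tested did not pass. Within the mitochondrial ribosomal RNAs, mt-Rnr1 stood at 51.6, 39.9 and 38.6 counts per 100 of mt-Rnr2 in NRG1 libraries and at 18.1, 24.2 and 42.9 in PBS libraries. PBS replicate 3 was above NRG1 replicates 2 and 3 in that ratio, and its part in the rise of the mitochondrial messages was not tested. mt-Co1 lost its call without NRG1 replicate 2 (0.0538). mt-Cytb lost it without any NRG1 library (0.0696, 0.0912 and 0.136) or PBS replicates 1 (0.131) or 2 (0.128).

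Fatty acid oxidation and PPAR target genes fell in 4 of 37 and rose in none, with 33 below 0 (median -0.24), and 2 fell without NRG1 replicate 2. Ppara, the lipid-sensing nuclear receptor, was at 8.88, 8.49 and 7.29 CPM against 13.4, 12.99 and 16.2 CPM (-0.79, SE 0.17, adjusted p = 0.0109). Creb3l3, a transcription factor that works with it in fasting, was at 4.93, 4.38 and 3.595 CPM against 11.8, 9.53 and 7.28 CPM (-1.15, SE 0.23, adjusted p = 0.00605). The enzymes Etfb (-0.58, 0.00859) and Acaa2 (-0.44, 0.0233) were the other 2. None of the 4 overlapped between groups. Over the whole list 10 of 37 did not overlap, a share near the 27.4% of all genes tested. Pex11a is a further PPAR-alpha target outside the list. Ppara lost its call with the 15-week-old mice alone (0.0937), Creb3l3 in the fit of all 24 libraries (0.0934), Etfb without NRG1 replicate 2 (0.0516), and Acaa2 without NRG1 replicates 2 (0.133) or 3 (0.0555) or PBS replicates 1 (0.0638) or 2 (0.055).

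Glycolysis and hypoxia-responsive genes were split, with 5 of 29 lower and 2 higher (median -0.17). Hk2, which commits glucose to glycolysis, was at 33.2, 36.3 and 26.2 CPM against 54.9, 59.3 and 57.7 CPM (-0.84, SE 0.13, adjusted p = 0.0012). Lactate dehydrogenase A, Ldha (-0.60, adjusted p = 0.0156), the lactate carrier Slc16a1 (-0.46, 0.0221), Pdk1 (-0.50, 0.0256) and Vegfa (-0.71, 0.0181) also fell. Gapdh, a glycolytic enzyme often used as a reference gene, rose from 138, 156 and 162 CPM to 209, 237 and 268 CPM (0.65, SE 0.12, adjusted p = 0.00475), and carbonic anhydrase Car9 rose by 0.47 (0.0191). Car9, Slc16a1 and Pdk1 were named after their values were seen. The 5 falls became 3 without NRG1 replicate 1, NRG1 replicate 2 or PBS replicate 2 and 2 without NRG1 replicate 3, and 1 rise was left in each of these. Car9 and Slc16a1 lost the call without any NRG1 library (0.0631, 0.0513 and 0.0891, and 0.094, 0.0611 and 0.0549) or PBS replicate 2 (0.0852 and 0.0951), and Pdk1 without NRG1 replicates 2 (0.0762) or 3 (0.0988) or PBS replicate 2 (0.0908). Ldha lost its call without NRG1 replicate 1 (0.078) or PBS replicate 2 (0.0793), and Vegfa without NRG1 replicate 3 (0.0765) or PBS replicate 1 (0.0685). Of 33 cholesterol and fatty acid synthesis genes only Nsdhl rose (0.57, adjusted p = 0.0136; 0.0513 without NRG1 replicate 1 and 0.0639 without NRG1 replicate 3).

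Calls in the stress, defence and adhesion lists were few or went both ways. Gpx2, the glutathione peroxidase of crypts, rose from 129, 119 and 138 CPM to 173, 213 and 241 CPM (0.70, SE 0.13, adjusted p = 0.00409), while the peroxiredoxin Prdx1 fell from 248, 245 and 194 CPM to 131, 151 and 155 CPM (-0.65, SE 0.13, adjusted p = 0.00526). With Cat rising and Gstt1 and Prdx5 falling, 2 of 33 genes of that list rose and 3 fell. Gstt1 lost its call without NRG1 replicates 1 (0.0516) or 2 (0.0527), and Prdx5 without NRG1 replicates 1 (0.0563) or 2 (0.0741) or PBS replicate 2 (0.115). Hlf, a PAR bZIP factor of clock output, was at 0.565, 1.13 and 0.462 CPM against 3.63, 3.56 and 4.67 CPM (-2.44, SE 0.39, adjusted p = 0.00133) and was the only call among 19 clock genes. Hspa5, the endoplasmic reticulum chaperone BiP, fell by 0.68 (adjusted p = 0.0261) and was the only call among 27 unfolded protein response genes, but not without NRG1 replicates 1 (0.105) or 2 (0.0872) or PBS replicates 2 (0.111) or 3 (0.0836). Of 19 heat shock genes 2 fell and none rose (median -0.27), and 0 to 6 fell over the alternative fits. Of 28 junction genes 2 rose and 1 fell. F11r, for the tight junction protein JAM-A, fell from 79.0, 94.3 and 59.9 CPM to 45.9, 50.6 and 37.3 CPM (-0.80, adjusted p = 0.00884). The desmosome gene Pkp2 rose from 30.7, 36.2 and 40.5 CPM to 51.9, 54.8 and 55.7 CPM (0.59, adjusted p = 0.00884). Ccl25, the chemokine that draws T cells to the small intestine, fell from 205, 197 and 216 CPM to 143, 142 and 119 CPM (-0.61, SE 0.12, adjusted p = 0.00429) and was the only call among 15 antimicrobial and defence genes. Foxa1, a pioneer factor, rose by 0.64 (adjusted p = 0.00863). It lost the call without NRG1 replicate 3 (0.0599) and in the fit of all 24 libraries (0.151). None of the 20 integrin and basement membrane genes tested passed.

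Markers of differentiated neighbours were read in the same libraries. Paneth and enteroendocrine cells are known for high CD24 and the gate was CD24low, yet Paneth RNA was abundant in these libraries. None of 32 enterocyte (median -0.16), 16 goblet (-0.25) or 5 tuft markers (-0.12) passed. These medians followed single libraries: the enterocyte median was -0.75 without NRG1 replicate 2, with 2 markers lower, and 0.12 without PBS replicate 2. The goblet median was -0.63 without PBS replicate 1 and 0.19 without PBS replicate 2, and the tuft median was 0.25 without PBS replicate 2. Muc2, the goblet mucin, was at 195, 500 and 368 CPM against 163, 690 and 332 CPM, with replicate 2 the highest in both groups. Of 21 Paneth markers 7 fell and none rose (median -0.65, with 4 above 0), and 11 fell with age as a covariate. The list medians were 0.15 in Lgr5med, 0.17 in Lgr5low and -0.52 in Lgr5neg. Lyz1, the most abundant, had 25799, 32435 and 17597 counts with NRG1 and 43972, 49951 and 21928 with PBS, so the groups overlapped. Defa21, a defensin gene, had 241, 542 and 272 against 272, 509 and 262 counts and also overlapped. Both were named after their values were seen. Gm15284, a defensin gene, was at 204, 229 and 156 CPM against 589, 649 and 373 CPM (-1.45, SE 0.21, adjusted p = 0.00409), and Defa17 at 40.7, 43.1 and 29.5 CPM against 59.9, 95.3 and 71.2 CPM (-0.999, adjusted p = 0.00635). Defa3 fell by 1.29 (adjusted p = 0.00402) and Clps, colipase, by 0.82 (0.00536). The 26 Paneth markers listed took 0.310% to 0.520% of counts outside mitochondrial ribosomal RNA with NRG1 and 0.566% to 0.955% with PBS. The 28 stem cell markers took 1.20% to 1.37% with NRG1 and 1.16% to 1.55% with PBS. The part of Paneth cell RNA in the falls of other genes was not tested. Defensin genes are near copies, so single members are uncertain. The 4 called genes named here lost the call in the fit of all 24 libraries (0.236 for Gm15284, 0.398 for Defa17, 0.276 for Defa3 and 0.525 for Clps). Of 12 enteroendocrine markers Tac1 alone was called, at 0.411, 0.236 and 0.359 CPM against 0.660, 4.38 and 1.41 CPM (-2.68, adjusted p = 0.0233). It lost the call without any NRG1 library (0.073, 0.104 and 0.0897) or PBS replicate 2 (0.209).

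The same 6 mice gave the other 3 populations, and their responses are set here beside that of Lgr5high cells. In Lgr5med cells 1279 of 13394 genes were called (9.55%), and 433 genes were called the same way in both, which is 44.4% of the Lgr5high and 33.9% of the Lgr5med calls. In Lgr5low 59 of 13326 (0.443%) and in Lgr5neg 39 of 11908 (0.328%) were called, with 30 and 11 of the Lgr5high calls among them. The genes called higher in Lgr5high had median log2 differences of 0.63 there, 0.45 in Lgr5med, 0.32 in Lgr5low and 0.35 in Lgr5neg, and those called lower had -0.72, -0.56, -0.38 and -0.28. The genes were selected in Lgr5high, which favours a larger median there.

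Some of the largest changes had the same direction in all 4 populations. Trmt61a differed by -1.83 in Lgr5high, -2.14 in Lgr5med, -1.58 in Lgr5low and -1.66 in Lgr5neg, with adjusted p = 0.000401, 5.94e-06, 0.00271 and 0.0416. H3f3a differed by 1.18, 1.53, 1.25 and 1.74 (0.000332, 0.000409, 0.0605 and 0.0275). Pex11a differed by -1.52, -1.503, -1.33 and -0.96, of which the first pair passed. Others were near 0 elsewhere, such as Rab26os, at -0.17 in Lgr5med and 0.02 in Lgr5low, and Defa3, at 0.34, 0.00 and -0.07 in Lgr5med, Lgr5low and Lgr5neg. The ribosomal protein list had medians of -0.32, 0.02, 0.16 and 0.39 from Lgr5high to Lgr5neg, with 24, 11, 0 and 0 members lower and 1, 10, 0 and 10 higher. The class II list had medians of -1.54, -1.27, -1.35 and -1.95, with calls in Lgr5high alone.

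**Figure D5:**
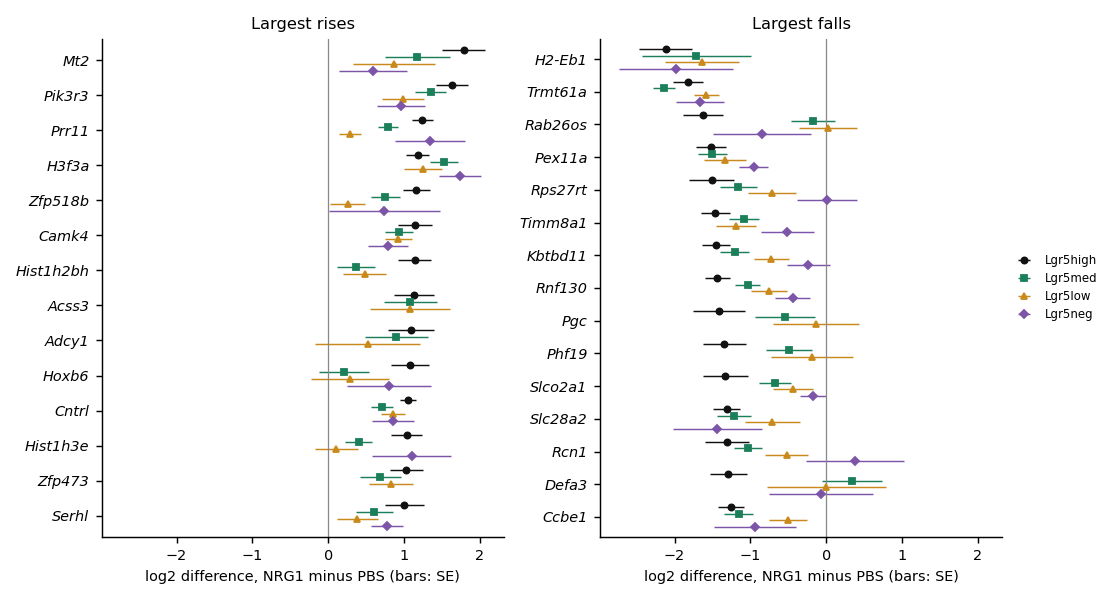
Log2 difference (NRG1 minus PBS) of 14 of the 15 largest rises (left) and the 15 largest falls (right) of Lgr5high cells in each of the 4 sorted populations, with standard errors as bars; a population is missing where the gene was too low to test. Trmt61a lies between -2.14 and -1.58 in all 4, while Defa3 is at -1.29 in Lgr5high and within 0.34 of 0 in the others.

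An interaction term in a fit of all 24 libraries tested whether a response differed between populations. No gene of 15045 was called against Lgr5med (0%; 576 at an unadjusted p under 0.05, 0 with DESeq2's size factors in edgeR) or against Lgr5low (0%; 676, and 0). With the mouse as a block, which the shared animals justify, there were 0 and 1. Against Lgr5neg 8 genes were called (0.0532%; 1303 unadjusted), 2 with the higher and 6 with the lower log2 difference in Lgr5high, and 65 with the mouse as a block. Tcf19, a growth-regulated factor of late G1, had the largest interaction of the 8, at -3.05 (SE 0.59, adjusted p = 0.0375). Cdc6 and Mcm6 differed by -1.87 and -1.32, with falls of 1.43 and 1.14 in Lgr5high beside log2 differences of 0.46 and 0.18 in Lgr5neg. Axin2 differed by 1.41, from 0.01 in Lgr5high and -1.40 in Lgr5neg, and Clic4, a chloride channel protein, by 1.46, from 0.32 and -1.14. Cd320, a receptor for vitamin B12 uptake (-2.08), and Rps28, a ribosomal protein (-1.31), were not called within Lgr5high (adjusted p = 0.917 and 0.326). Fam101b (-1.19), outside the naming rule and named after its value was seen, completes the 8. Leaving out NRG1 replicates 1, 2 and 3 in turn gave 1, 3 and 6 calls, and leaving out PBS replicates 1, 2 and 3 gave 4, 4 and 2.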

How the data were processed

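Counts per gene symbol in 24 libraries were deposited by the authors as whole read counts without normalization. Per the submitters' processing notes the tools were STAR and featureCounts with GRCm38; their versions and the strand setting are not given in the sources used here. Groups and replicates came from the labels. The 6 Lgr5high libraries were fitted with edgeR 4.0.16 (R 4.3.3) by robust quasi-likelihood after filterByExpr (minimum count 10, minimum total 15) and TMM scaling, with Benjamini-Hochberg adjustment over all 13322 genes and a threshold of 0.05. CPM values are scaled by TMM within these libraries. Interactions were fitted over all 24 libraries. The fit was also run on simulated counts with the same spread for all genes and no age or replicate effects. That run does not measure its errors in these libraries.

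The members, gene lists and tests were chosen with earlier results of these data known, and 3 symbol families (cytosolic and mitochondrial ribosomal proteins, replication-dependent histones) and the length and GC offset (spline with 4 degrees of freedom) were added after values were seen. Outside the cell cycle lists, the genes eligible by rule were the 15 largest rises and falls among called genes whose log2 CPM averaged 2 or more, without overlap and without predicted genes, up to 4 called members with the smallest p per list, the ErbB receptors, Lgr5, Olfm4, Ascl2, Ung, Myc and Mki67, and up to 5 interaction genes each way. Alternatives were DESeq2 1.42.0, its size factors, other count filters, removal of mitochondrial ribosomal RNA, age, a replicate block and leaving out each library. Each library came from 1 mouse. Promoter letters were taken from RefSeq on GRCm38.p6. 1 gene of the largest rises is not reported here.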

Additional observations from a re-analysis of the deposited data

Results flagged for a closer look

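In 8 genes the response to NRG1 differed between Lgr5high and Lgr5neg cells by edgeR's interaction test over all 24 libraries. The log2 difference in Lgr5high minus that in Lgr5neg was 1.46 for Clic4 (adjusted p = 0.00048) and 1.41 for Axin2 (0.0221). It was -3.05 for Tcf19 (0.0375), -2.08 for Cd320 (0.0316), -1.87 for Cdc6 (0.0338), -1.32 for Mcm6 (0.0375), -1.31 for Rps28 (0.0316) and -1.19 for Fam101b (0.0375). The number of such genes ran from 1 to 6 when single replicates were left out. These adjusted p values come from the fit without the mouse as a block. With that block, which the shared animals justify, 65 genes were called.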

How the results depend on the processing

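The 976 calls in Lgr5high cells became 969 with DESeq2's size factors, 1254 with DESeq2, 1428 with no filter on low counts, 1014 with a stricter filter, 733 in the 15-week-old mice and 480 in the fit of all 24 libraries. Leaving out 1 library gave 491 to 1186. The share of calls that were higher was 43.34%, but 32.61% in the 15-week-old mice and 48.86% with the length and GC offset. In their deviations from the group means, same-numbered NRG1 and PBS libraries correlated at 0.10, 0.28 and 0.09. PBS replicate 3 correlated at 0.0931 with NRG1 replicate 1 and at 0.0864 with NRG1 replicate 3, a near tie. Each other library correlated best with that of its own number. The main fit did not take the numbers as pairs. With the replicate number as a block there were 1229 calls. With that block 6 MHC class II, 12 Paneth, 8 fatty acid oxidation, 5 enterocyte and 3 goblet genes were called lower, against 3, 7, 4, 0 and 0. Interactions against Lgr5med and Lgr5low rose from 0 calls to 17 and 35 with no filter, and to 1 against Lgr5low with the mouse as a replicate block. Against Lgr5neg the 8 calls became 150 with no filter, 65 under the mouse replicate block and 1 to 6 without single libraries. The causes were not tested. Of 119 called genes named by rule, 42 kept the call in all 16 alternatives, 56 lost it without at least 1 library and 13 lost it with the offset. The 3 mice a group and 10163890 to 12211432 counts per library outside mitochondrial ribosomal RNA set the precision of low genes.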
